A study of Homo sapiens with 6 samples.

Results

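Genes of gap junction channels and their scaffold were followed in K562 cells that rely on an EP400 protein unable to hold TRRAP. The set of 9 genes, out of 60609 in the count tables, was matched by gene symbol and consists of 6 connexins (GJA1, GJA3, GJA4, GJB2, GJC1 and GJD3), the pannexins PANX1 and PANX2, and TJP1. GJA1 was picked because it rose from 0 counts in WT cells, so its values are given as a description. It is left out of the counts of tests below, except where it is said to be included. Its call there follows from how it was picked. K562 is an established human leukaemia line with erythroid features, labelled lymphoblast by the submitters. All cells carried a homozygous degradation tag on endogenous EP400, the scaffold and ATPase subunit of the TIP60 acetyltransferase and chromatin remodeling complex. They were given 500 nM dTAGV-1, the small molecule that removes the tagged protein, for 24 h. The WT group (3 libraries) expressed wild-type EP400 from the AAVS1 safe harbour site. The Delta-TRRAP group (3 libraries) expressed EP400 without the SANT and HD domains from the same site. Each complemented line was a single clone, so clone and genotype cannot be told apart, and p-values measure only the spread between libraries of one clone.

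Connexins assemble as hexamers into hemichannels, and hemichannels of neighbouring cells dock to form gap junctions, through which ions and small metabolites pass from cell to cell. Pannexins form large-pore channels of the plasma membrane that release ATP and do not usually dock. ZO-1, the product of TJP1, is a membrane-associated scaffold that binds the tail of Cx43, the GJA1 product, and also organizes tight junctions. Blood cells in suspension use few connexins, whereas Cx43 is the most widespread connexin of solid tissues and is also made by stromal cells of the bone marrow.

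The libraries held 35076835 to 42616061 counts in genes, and normalized counts below were scaled to library size with TMM factors. Mitochondrial genes took 3.18% to 3.71% (WT) and 5.07% to 6.24% (Delta-TRRAP) of the counts. The erythroid identity of the line was visible in both groups, since all 12 erythroid markers examined passed the count filter, and their normalized counts summed to 232171 to 233197 (WT) and 154528 to 156304 (Delta-TRRAP). TFRC, the transferrin receptor gene, carried most of that sum, and the other 11 markers summed to 36866 to 40047 (WT) and 62240 to 68988 (Delta-TRRAP), with ALAS2, HBZ and HBE1 called higher and LMO2 called lower. Of 10 lymphoid markers, 4 passed that filter, MS4A1 was at 0 in every library, and the sums were 515 to 526 (WT) and 447 to 486 (Delta-TRRAP), most of it CD3D. Genes with a mean of at least 5 normalized counts were tested, and 6 of the 9 gap junction genes passed (GJA1, GJA3, GJC1, PANX1, PANX2 and TJP1). Calls required an adjusted p (Benjamini-Hochberg) no higher than 0.01 together with a fold change of 2 or more.

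Upstream sequence is shown for the genes of the set with the largest differences, GJA1 and GJA3, and for PANX1, which had overlapping values in the groups. RefSeq (GRCh38.p14) gave entries for 5 of the 9 genes, and the windows are the 250 bases before the RefSeq start of each of the 3 genes, 5′ to 3′ on the strand of the gene. The GENCODE start of GJA1 (121435595) lies within its window, so 51 bases of that window are inside the annotated gene, and only the 199 bases before it are printed (chr6:121435396-121435594). Capitals mark matches to the AP-1 motif TGANTCA or to the GC box GGGCGG, searched on both strands. The windows are chr6:121435396-121435645 (plus strand) for GJA1, chr13:20161053-20161302 (minus strand) for GJA3 and chr11:94128591-94128840 (plus strand) for PANX1.
GJA1: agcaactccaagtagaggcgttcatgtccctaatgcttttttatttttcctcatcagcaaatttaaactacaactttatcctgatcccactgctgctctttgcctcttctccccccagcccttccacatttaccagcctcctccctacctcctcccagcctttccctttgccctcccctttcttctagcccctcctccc
GJA3: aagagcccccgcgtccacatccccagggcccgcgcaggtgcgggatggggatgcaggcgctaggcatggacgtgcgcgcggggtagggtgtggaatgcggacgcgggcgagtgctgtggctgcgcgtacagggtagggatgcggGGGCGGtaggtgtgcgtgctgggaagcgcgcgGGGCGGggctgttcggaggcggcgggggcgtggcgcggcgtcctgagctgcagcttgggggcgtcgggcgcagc
PANX1: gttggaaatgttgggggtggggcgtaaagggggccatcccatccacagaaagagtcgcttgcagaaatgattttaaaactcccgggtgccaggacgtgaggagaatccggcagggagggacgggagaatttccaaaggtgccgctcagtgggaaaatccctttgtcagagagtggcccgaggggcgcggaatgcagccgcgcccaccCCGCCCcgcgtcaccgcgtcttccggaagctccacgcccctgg
The whole GJA1 window held 1 AP-1 match, no GC box and 1 CpG dinucleotide, and the AP-1 match (121435598 to 121435604) lies after the GENCODE start, in the part not printed. The GJA3 window held 2 GC boxes and 33 CpG, and the PANX1 window held 1 GC box and 19 CpG, both without an AP-1 match. Among all 35116 promoter windows of this length, 6.57% held the AP-1 motif and 42.6% held the GC box, and the median number of CpG was 11. The third motif searched, TATAAA, occurs in 10.7% of windows and was in none of these 3. A match describes the letters of the window and does not show binding.

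GJA1 encodes Cx43, and it was the connexin with by far the largest difference in level. GJA1 (ENSG00000152661.9, chromosome 6, 121435595 to 121449727, plus strand of hg38, 2 exons in the canonical transcript) had 0 counts in each of the WT libraries. It had 559, 614 and 479 counts in Delta-TRRAP replicates 1, 2 and 3, or 546 ± 40.3 normalized counts (SD, n = 3). Every Delta-TRRAP library therefore stood far above every WT library. Against a floor of 3 counts summed over the WT group, GJA1 was at least 544-fold higher in Delta-TRRAP. Among 88 tested genes without a count in WT, 2 were at or above this level, GJA1 itself and DACH1. The median of the 88 was 16.5 normalized counts in Delta-TRRAP. With no count in WT, these genes passed the filter only through Delta-TRRAP, so that median depends on the filter. GJA1 was picked for its rise, and nothing is read from its place among them. The Delta-TRRAP level exceeded that of 56.9% of all tested genes in the same cells, by normalized counts not corrected for transcript length. Processed pseudogenes can take reads from their parent gene, and the GJA1 pseudogene GJA1P1 had 0 counts in all libraries.

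**Figure D1:**
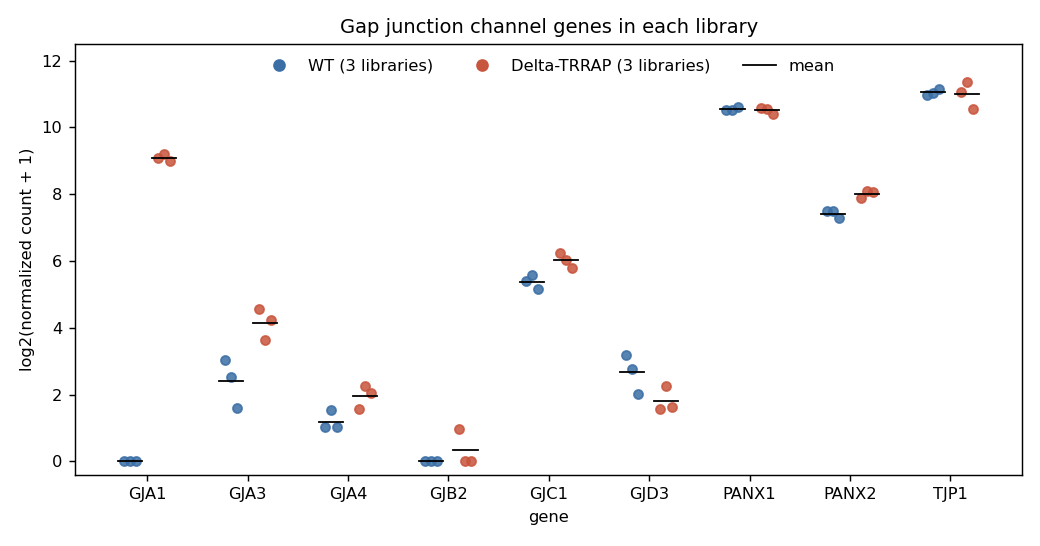
Normalized counts on a log2(value + 1) axis for the 9 genes, with WT libraries in blue, Delta-TRRAP libraries in red and a line at the mean of the 3 log values of each group. GJA1 goes from 0 to between 506 and 586 normalized counts, while PANX1 and TJP1 overlap between groups.

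GJA3, the lens connexin Cx46, was low in WT and higher in Delta-TRRAP. GJA3 (ENSG00000121743.4, chromosome 13, 20138255 to 20161052, minus strand) had 7, 5 and 2 counts in WT and 23, 12 and 17 in Delta-TRRAP. The groups did not overlap, at 4.68 ± 2.56 and 17.3 ± 5.54 normalized counts (SD, n = 3 each). A log2 fold change of 1.85 ± 0.43 (SE) passed the edgeR test at an adjusted p of 0.00143. The mean in WT was under the filter of 5, so GJA3 was tested only because of its Delta-TRRAP level. Without Delta-TRRAP replicate 1 the log2 fold change was 1.61 and the edgeR adjusted p was 0.0104, which ends the call.

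GJC1, which encodes Cx45 and is made in the heart and in vessel walls, was the next most counted connexin. GJC1 (ENSG00000182963.10, chromosome 17, 44798448 to 44830816, minus strand) had 40, 49 and 34 counts in WT and 76, 67 and 52 in Delta-TRRAP. All Delta-TRRAP libraries lay above all WT libraries, and the means were 41.0 ± 6.18 (WT) and 64.4 ± 9.70 (Delta-TRRAP) normalized counts (SD, n = 3 each). The log2 fold change of 0.65 ± 0.18 (SE, 95% interval 0.26 to 1.04) passed the adjusted p of the edgeR test (0.00559) and not the fold change of 2. It was no longer past the adjusted p with DESeq2 (0.015) or without WT replicate 1 (0.0206), WT replicate 3 (0.0321) or Delta-TRRAP replicate 1 (0.0385).

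The remaining connexins of the set stayed under the filter and were not tested. GJA4, the endothelial connexin Cx37, had 1, 2 and 1 counts in WT and 2, 4 and 3 in Delta-TRRAP. GJB2, the cochlear and skin connexin Cx26, had 0 counts in WT and 1 count in Delta-TRRAP replicate 1 alone. GJD3, which encodes a little-studied connexin, had 8, 6 and 3 counts in WT and 2, 4 and 2 in Delta-TRRAP. With no filter on low counts these 3 genes were fitted too and none was called. GJB2 is the neighbour of GJA3 on chromosome 13 (20187463 to 20192938), and GJB6 follows (20221962 to 20232365), with 1 count in Delta-TRRAP replicate 1. GJB5, which lies near GJA4 on chromosome 1 and was singled out after its values were seen, had 1, 1 and 3 counts in Delta-TRRAP and none in WT.

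PANX1 was the most abundant channel gene of the set, and its values overlapped between the groups. PANX1 (ENSG00000110218.9, chromosome 11, 94128841 to 94181968, plus strand), the ubiquitous pannexin, had 1436, 1534 and 1521 counts in WT and 1581, 1583 and 1289 in Delta-TRRAP. The groups overlapped, with a log2 fold change of -0.03 ± 0.06 (SE, 95% interval -0.15 to 0.10) and an edgeR adjusted p of 0.672. Scaling by library size alone, which moves the median of all genes to 0.17, gave 0.13 for PANX1, and leaving out Delta-TRRAP replicate 3 gave 0.024.

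PANX2, a pannexin best known from the brain and from intracellular membranes, was moderately higher in Delta-TRRAP. PANX2 (ENSG00000073150.14, chromosome 22, 50170731 to 50180295, plus strand) had 176, 185 and 150 counts in WT and 240, 286 and 253 in Delta-TRRAP. The groups did not overlap, at 171 ± 14.7 and 258 ± 20.7 normalized counts (SD, n = 3 each). The log2 fold change of 0.59 ± 0.10 (SE, 95% interval 0.38 to 0.81) had an edgeR adjusted p of 9.66e-05 and was under a fold change of 2.

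TJP1, the ZO-1 gene, did not differ beyond the spread between replicates. TJP1 (ENSG00000104067.16, chromosome 15, 29699367 to 29968915, minus strand) had 1978, 2149 and 2204 counts in WT and 2202, 2760 and 1422 in Delta-TRRAP. The Delta-TRRAP libraries spanned the whole WT range, at 2097 ± 569 against 2120 ± 125 normalized counts (SD, n = 3 each). On the log2 scale the difference was -0.01 ± 0.13 (SE, 95% interval -0.30 to 0.27; edgeR adjusted p 0.932). Without Delta-TRRAP replicate 3 it was 0.18 with an edgeR adjusted p of 0.0416. On the log2(value + 1) scale TJP1 in that library differed by -0.67 from the mean of the other two, and the long complemented gene EP400 was also low there (-0.49). Over 11445 genes with a mean of at least 100 normalized counts, those of at least 8105 exonic bases had a median difference of -0.070, and those of at most 3273 bases one of 0.067. The part of RNA length in the TJP1 value was not tested.

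Among the 5 tested genes other than GJA1, edgeR called 1 higher (GJA3), where 16.2% of all 19114 tested genes were called higher, and 0 lower, where 6.34% were. Calls in either direction made up 22.5% of all tested genes. The adjusted p of 0.01 was passed, whatever the fold, by 3 of the 5 (GJA3, GJC1 and PANX2), against 58.6% of all tested genes. In the same 3 genes every Delta-TRRAP library lay above every WT library, which held for 36.0% of all tested genes, while 71.1% did not overlap in one direction or the other. GJA3 passed the filter only through Delta-TRRAP, so nothing is read from these counts.

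Levels of different genes were compared per transcript length, as TPM values (counts per exon length, scaled to the same total in each library) computed with exon lengths of GENCODE 44. In WT the order was PANX1 (50.2 ± 2.14 TPM, SD, n = 3), TJP1 (17.8 ± 1.23), PANX2 (5.24 ± 0.411) and GJC1 (0.448 ± 0.0673), with the ranges of these neighbours apart, and the other members were below 0.2 TPM in every library. In Delta-TRRAP, GJA1 (16.1 ± 1.77 TPM, SD, n = 3) stood beside TJP1 (18.7 ± 5.68 TPM), whose range of 12.7 to 24.0 TPM includes all GJA1 values. PANX1 (51.7 ± 5.18 TPM) lay above both, and PANX2 (8.32 ± 0.722 TPM) and GJC1 (0.741 ± 0.13 TPM) lay below. Over the 21 connexin genes, the summed level was 1.81 to 2.50 TPM (WT) and 18.5 to 21.6 TPM (Delta-TRRAP). GJA1 made up 77.3% to 82.6% of this sum in Delta-TRRAP and 0% in WT. Without GJA1 the sum was 3.76 to 4.48 TPM in Delta-TRRAP, still above the WT libraries. GJC3 was the leading connexin in WT, with 32.9% to 43.7% of the sum.

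**Figure D2:**
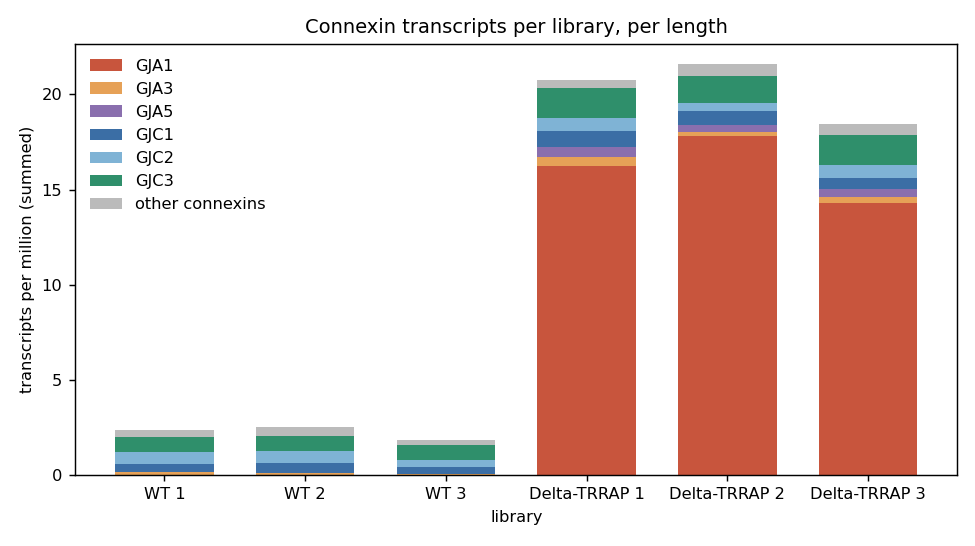
Summed TPM of the 21 connexin genes in each of the 6 libraries, with bar segments for 6 connexins and the others pooled. GJA1 fills 77.3% to 82.6% of each Delta-TRRAP bar and none of the WT bars, and GJC3 is the largest segment in WT.

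The rest of the family was examined as a list of 18 genes, holding the other connexins and further pannexin and ZO genes, of which 6 passed the filter. Of these 6, 3 were called higher (16.2% of all tested genes) and 0 lower (6.34%), with a median log2 fold change of 1.05, against 0.0057 over all tested genes. With a minimum mean of 50, 1 of the 6 was tested, against 12699 of all 19114 genes. The shares over all tested genes therefore rest mostly on more abundant genes than these. GJA5, the atrial and arterial connexin Cx40, had 0, 1 and 0 counts in WT and 18, 12 and 13 counts in Delta-TRRAP. The groups stood at a ratio of 42.6 (exact 95% interval for counting error 7.24 to 1720), and the edgeR adjusted p was 1.25e-05, but GJA5 passed the filter only through Delta-TRRAP. PANX3, a pannexin of bone and skin, had 9, 10 and 10 counts in WT and 27, 27 and 24 in Delta-TRRAP, a log2 fold change of 1.40 ± 0.27 (SE, edgeR adjusted p 0.000262). TJP3, which encodes ZO-3, had values of 57.2 and 37.7 normalized counts in WT and Delta-TRRAP, with an edgeR adjusted p of 0.0231, and GJC3 had 9.37 and 17.3 with an edgeR adjusted p of 0.0181, neither past the threshold. GJD2, the neuronal connexin Cx36, was singled out after its values were seen, with 2 counts in each WT library and 0 in each Delta-TRRAP library. Across all 21 connexins, 6 were tested, GJA1 included, and 5 had no count in any library. The called connexins, GJA1, GJA3 and GJA5, all passed the filter only through Delta-TRRAP, so nothing is read from their number.

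The partners of Cx43 are proteins that bind, phosphorylate, transport or degrade it, and 32 of 34 such genes were tested. None was called higher and 4 were called lower by edgeR, while 5 passed the adjusted p of 0.01 upward and 17 downward. Lower calls thus made up 4 of 32, a larger share than the 6.34% of all tested genes. Higher calls made up 0 of 32, where the share of all tested genes was 16.2%. Both directions together stayed under the 22.5% of all tested genes, while 68.8% passed the adjusted p against 58.6%. With a minimum mean of 50, 4 of 31 partners were called lower and 0 higher. Of all 12699 genes tested at that minimum, 822 were called lower and 1147 higher. The median log2 fold change was -0.23. CAV1, the main coat protein of caveolae, fell from 239 ± 19.8 normalized counts in WT to 73.7 ± 7.69 (SD, n = 3 each), a log2 fold change of -1.70 ± 0.12 (SE, edgeR adjusted p 6.39e-09). CNST, which encodes consortin, a receptor for connexins in the trans-Golgi network, fell from 5484 ± 64.2 normalized counts in WT to 2300 ± 16.9 (SD, n = 3 each, log2 fold change -1.25). ERP29, a chaperone of the endoplasmic reticulum that helps keep Cx43 monomeric before assembly, fell from 5633 ± 139 to 2357 ± 148 (SD, n = 3 each, log2 fold change -1.26). SRC, a kinase that phosphorylates the Cx43 tail, fell from 601 ± 35.8 to 253 ± 13.4 (SD, n = 3 each, log2 fold change -1.25), and all 4 had edgeR adjusted p values of 6.39e-09 or lower. Among the most abundant partners were TUBA1B (log2 fold change -0.79 ± 0.05, SE), which has near-identical copies and an uncertain count, CDK1 (-0.69 ± 0.06) and KIF5B (-0.24 ± 0.05). CDH2, the N-cadherin that accompanies Cx43 in many tissues, had no count in any library.

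ATP released through pannexin channels acts on purinergic receptors and is broken down by ectonucleotidases, and 11 of 12 genes of this list were tested. By edgeR, 4 were called lower and 3 higher (63.6%, against 22.5% of all tested genes), so the median log2 fold change of -0.91 gives no common direction. The genes called lower included P2RX1, P2RX5 and P2RX7, which encode ATP-gated cation channels. P2RX7 had 60, 91 and 65 counts in WT and 13, 16 and 12 in Delta-TRRAP (log2 fold change -2.40 ± 0.23, SE). P2RX1 fell from 461 ± 42.3 normalized counts in WT to 162 ± 15.9 (SD, n = 3 each, log2 fold change -1.51). P2RX5 had 23, 37 and 31 counts in WT and 0, 2 and 2 in Delta-TRRAP, and it overlaps a read-through gene, so its counts are uncertain. P2RX4 and P2RY1 also passed the adjusted p of 0.01 downward, at log2 fold changes of -0.91 and -0.94, short of a fold change of 2. The genes called higher encode enzymes that degrade extracellular nucleotides. ENTPD1 (CD39) had 9, 10 and 11 counts in WT and 125, 126 and 118 in Delta-TRRAP (log2 fold change 3.59 ± 0.19, SE). NT5E (CD73) had 2 counts over the WT group and 87 over Delta-TRRAP, 43.1 times as many after scaling (exact 95% interval for counting error 11.6 to 361), and it passed the filter only through Delta-TRRAP, as P2RX5 did only through WT. ENTPD3 rose from 158 ± 13.9 to 375 ± 17.7 normalized counts (SD, n = 3 each). The edgeR adjusted p of the 6 called genes named here ranged from 2.16e-10 to 9.61e-07.

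Of 11 genes of other large-pore channels, 5 were tested, all of them subunits of the volume-regulated LRRC8 channels, and none was called. Their log2 fold changes ran from -0.10 to 0.36. LRRC8A, the obligatory subunit of the volume-regulated anion channel, passed the adjusted p of 0.01 (log2 fold change 0.36 ± 0.06, SE, edgeR adjusted p 8.15e-05) without reaching a fold change of 2. The others with high counts were LRRC8B (-0.10 ± 0.05), LRRC8C (0.12 ± 0.05) and LRRC8D (-0.03 ± 0.05), none past the threshold of adjusted p. At an unadjusted p under 0.05, 2 of the 5 passed by edgeR, and DESeq2 called 0. The 6 CALHM genes were under the filter, and with no filter CALHM5 (2, 2 and 0 counts in WT against 8, 4 and 11, chosen after its values were seen) was called higher, with a log2 fold change of 2.41 and an edgeR adjusted p of 0.0021.

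ZO-1 joins connexins and transmembrane proteins of tight junctions to the cytoskeleton, and 15 of 20 such partners were tested, of which 4 were called higher and 1 lower by edgeR (33.3%, against 22.5% of all tested genes; median log2 fold change 0.14). Of the 4 called higher, 3 (JAM2, MARVELD3 and CGN) passed the filter only through Delta-TRRAP. JAM2, a junctional adhesion molecule, had 1, 2 and 1 counts in WT and 51, 52 and 45 in Delta-TRRAP (log2 fold change 5.07 ± 0.36, SE). Its relative JAM3 fell from 91.1 ± 6.57 normalized counts in WT to 41.4 ± 14.4 (SD, n = 3 each, log2 fold change -1.13 ± 0.20, SE), a call lost when libraries were scaled by size alone (-0.98) and without Delta-TRRAP replicate 2 (-0.95). MARVELD3, a tight junction membrane protein, had 3 counts over the WT group and 98 over Delta-TRRAP, 32.3 times as many after scaling (exact 95% interval for counting error 10.7 to 160). CGN, which encodes cingulin, had 1, 0 and 4 counts in WT and 12, 22 and 15 in Delta-TRRAP (log2 fold change 3.18 ± 0.59, SE). MAGI1, a junctional scaffold, rose from 2963 ± 141 to 6599 ± 440 normalized counts (SD, n = 3 each, log2 fold change 1.16 ± 0.06, SE). Of the most abundant partners, AFDN had a log2 fold change of 0.62 ± 0.07 (SE), past the adjusted p of 0.01, and YBX3 (0.14 ± 0.06) and SYMPK (-0.03 ± 0.05) were not. OCLN, which encodes occludin, had 1 count in all 6 libraries together.

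**Figure D3:**
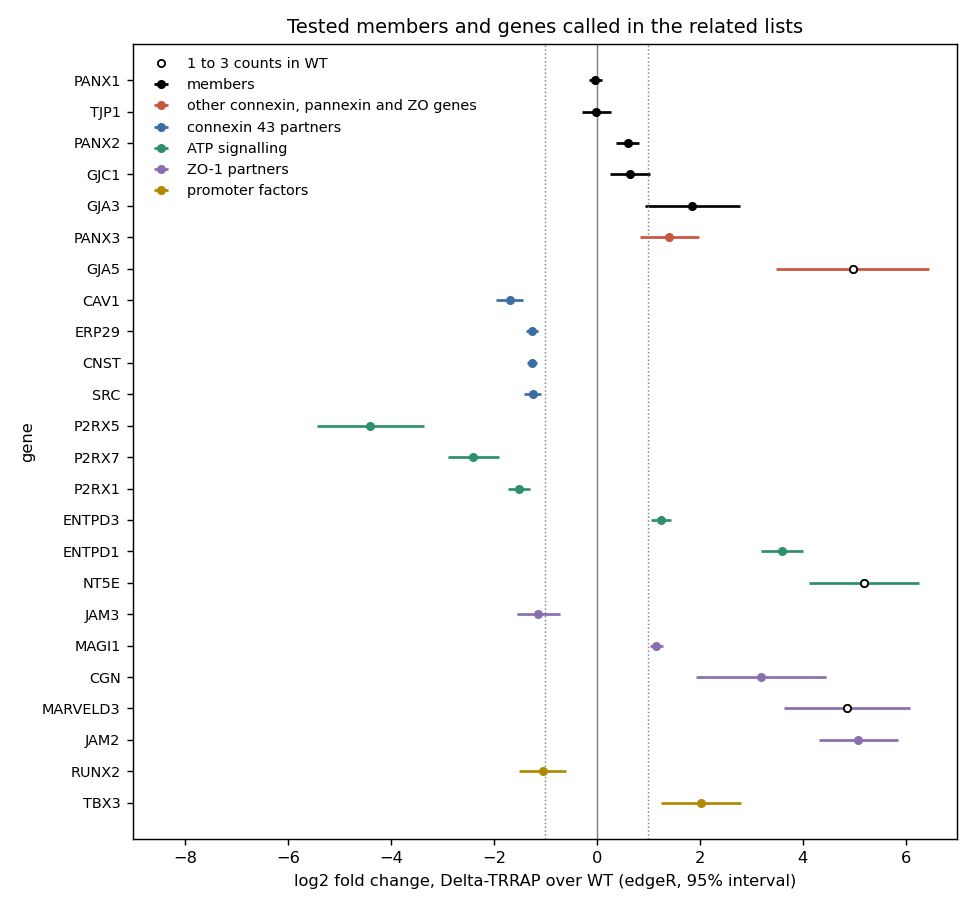
Log2 fold changes of Delta-TRRAP over WT with 95% intervals from edgeR for the 5 tested members other than GJA1 and for called genes of the related lists, with dotted lines at a fold change of 2. Open symbols mark GJA5, NT5E and MARVELD3, whose fitted values rest on 1 to 3 counts in WT, and the 4 partners of Cx43 all lie to the left of 0.

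Factors known to act on the GJA1 promoter were listed as SP1, SP3, JUN, FOS, TBX2, TBX3, NKX2-5 and RUNX2, and 6 of the 8 were tested and 2 called (33.3%, against 22.5% of all tested genes). TBX3, a T-box repressor of connexins in the heart, was called higher, with 10, 3 and 6 counts in WT and 24, 25 and 30 in Delta-TRRAP (log2 fold change 2.02 ± 0.36, SE). RUNX2, a factor of bone formation, was called lower, from 70.3 ± 12.6 to 33.5 ± 8.91 normalized counts (SD, n = 3 each, log2 fold change -1.05 ± 0.21, SE), a call lost under library size scaling (-0.89) and without WT replicate 1 (-0.96) or Delta-TRRAP replicate 3 (-0.86). JUN and FOS, which form AP-1, had 1203 ± 51.9 and 664 ± 79.4 normalized counts in WT and 2297 ± 68.3 and 1159 ± 361 in Delta-TRRAP (SD, n = 3 each). Both passed the adjusted p of 0.01 with log2 fold changes of 0.93 ± 0.05 and 0.80 ± 0.16 (SE), short of a fold change of 2, which JUN reached under library size scaling (1.09) and FOS without Delta-TRRAP replicate 1 (1.00). SP3 fell without reaching that fold, with a log2 fold change of -0.51 ± 0.05 (SE), and SP1 (-0.19 ± 0.07, SE) did not pass the adjusted p. TBX2 and NKX2-5 had no counts in any library.

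**Figure D4:**
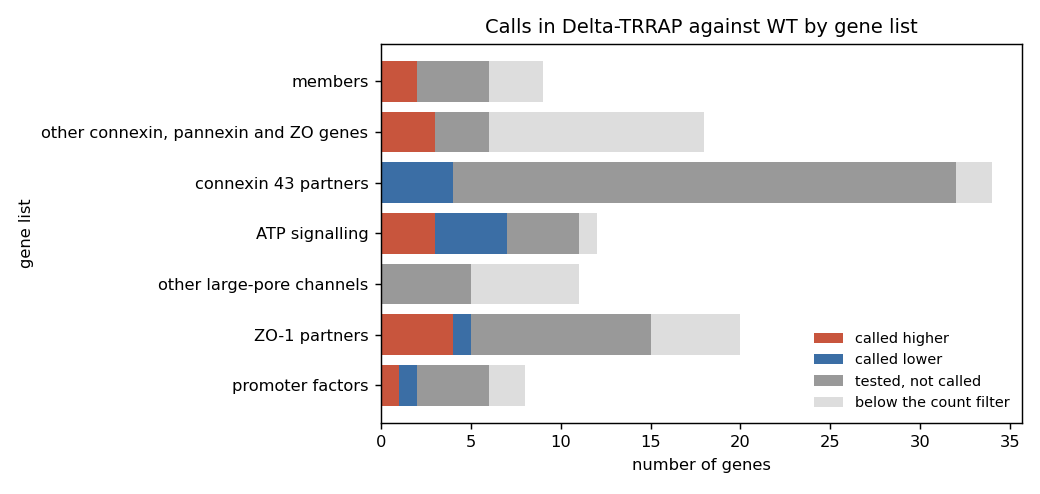
Number of genes called higher, called lower, tested without a call and below the count filter in each list. The members of the set, GJA1 included, are in the top bar, and the GJA1 call there follows from how it was picked. Calls in the Cx43 partners are 4 lower of 32 tested, while the ATP signalling genes split into 3 higher and 4 lower.

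The genes around GJA1 were examined within 1000 kb of its start. Of 22 annotated genes there, 7 had a count and 4 were tested, including GJA1. TBC1D32, whose product acts in cilia and whose start lies at -101 kb (negative values are upstream), had 325, 331 and 289 counts in WT and 588, 645 and 563 in Delta-TRRAP. Its log2 fold change was 0.91 ± 0.07 (SE, edgeR adjusted p 2.45e-08), just short of a fold change of 2. AL096854.1, a long non-coding RNA gene at -973 kb, was called higher, with 12, 9 and 9 counts in WT and 51, 41 and 35 in Delta-TRRAP. HSF2, a heat shock factor at 964 kb, had a log2 fold change of -0.26 ± 0.05 (SE, edgeR adjusted p 0.000391). None of these tested neighbours was at 0 in WT.

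**Figure D5:**
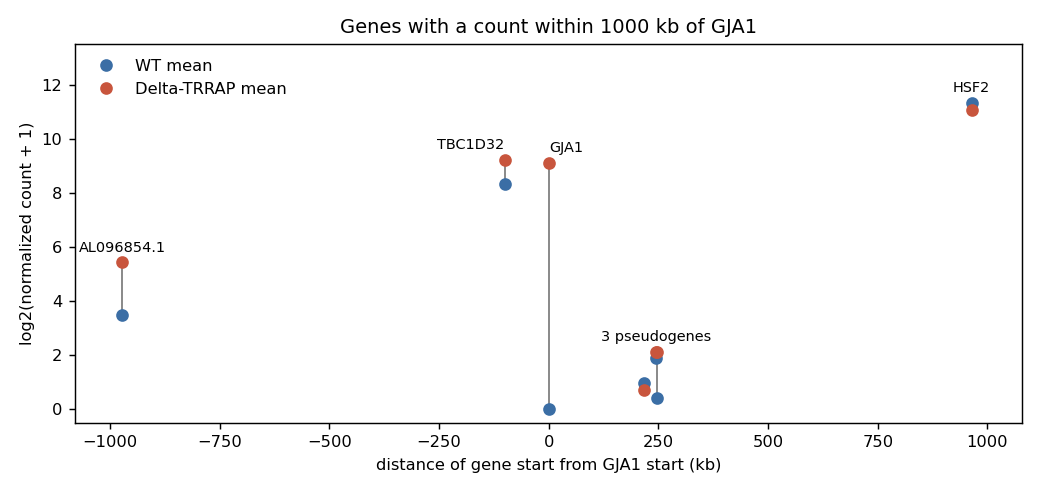
Group means of the 7 genes with a count within 1000 kb of the GJA1 start, on a log2(normalized count + 1) axis against the distance between gene starts in kb. GJA1 goes from 0 to 546 normalized counts, TBC1D32 from 316 to 595 and HSF2 from 2563 to 2142.

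The genes whose profile over the 6 libraries was closest to that of GJA1, by Euclidean distance of log2(normalized count + 1), were ACTA2, TNMD, TSPAN6, DACH1 and GRIP1. ACTA2, the smooth muscle actin gene, was nearest at a distance of 0.998 and had 526 ± 12.4 normalized counts in Delta-TRRAP (SD, n = 3). The others lay at distances of 2.39 to 2.66. None of the 5 is on chromosome 6.

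Markers of cell types that use Cx43 were counted beside GJA1. Over all tested genes, 16.2% were called higher and 6.34% lower, and nothing is read from the few marker calls. Of 9 fibroblast markers, 5 were tested and 2 were called higher, COL1A2 (1, 4 and 0 counts in WT against 887, 947 and 788) and PDGFRB, while LUM and PDGFRA were at 0 in every library. Summed fibroblast markers gave 1352 to 1513 (WT) and 1716 to 2018 (Delta-TRRAP) normalized counts, and 1351 to 1513 (WT) and 884 to 1114 (Delta-TRRAP) without COL1A2. COL6A3, which made up most of the WT sum, fell from 1372 ± 72.6 to 935 ± 129 (SD, n = 3 each, log2 fold change -0.55, edgeR adjusted p 2.06e-05), and COL1A1 had 28.9 ± 10.5 and 29.8 ± 9.84 (SD, n = 3 each). COL1A2 and PDGFRB, like the endothelial TEK, passed the filter only through Delta-TRRAP. Of 7 endothelial markers, 2 were tested and 1 was called higher (TEK), and CDH5 had 1 count in WT and none in Delta-TRRAP. The endothelial sums were 677 to 693 (WT) and 402 to 474 (Delta-TRRAP). Most of both sums was PECAM1, the other tested marker, whose mean was 680 in WT and 397 in Delta-TRRAP. PECAM1 was thus lower in Delta-TRRAP, but its log2 fold change of -0.77 (edgeR adjusted p 1.22e-07) was too small for a call. Of 7 muscle markers, DES and CNN1 were tested and called lower, and the sums were 755 to 825 (WT) and 258 to 285 (Delta-TRRAP). ACTA2, the smooth muscle actin gene named above, was not on this list. It went the other way, with means of 0.322 (WT) and 526 (Delta-TRRAP) normalized counts. Of 7 epithelial markers, 4 were tested and EPCAM was called lower. KRT18 and KRT19 passed the adjusted p of 0.01 upward (log2 fold changes 0.65 and 0.85), short of a fold change of 2, and KRT8 did not pass. KRT5 was at 0 throughout, and the epithelial sums were 23940 to 24704 (WT) and 24557 to 26722 (Delta-TRRAP). The part of other cell types in the GJA1 level was not tested. In such bulk RNA, more cells with GJA1 and more GJA1 RNA per cell cannot be told apart.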

How the data were processed

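Poly(A) RNA of 6 libraries was sequenced. The authors aligned uniquely mapping reads to hg38 with STAR and counted reads per GENCODE 32 gene with HTSeq 2.0.2 in reverse-stranded union mode. The deposited counts are not normalized. Reads with several matches were dropped, which lowers the counts of near-identical gene copies. The deposited table of normalized signal, which has 3 further columns of another condition, and the deposited table of log2 fold changes and p-values of the authors' own DESeq2 comparison were not used.

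Counts were tested here with edgeR 4.0.16 (R 4.3.3), TMM scaling and its quasi-likelihood F test (no covariate besides group) on 19114 of 34998 genes with a count (mean normalized count of at least 5). Call thresholds (adjusted p 0.01 by Benjamini-Hochberg, fold change 2) follow the study's own, set there for DESeq2. SE is the absolute log2 fold change over the root of F. The script was tested on simulated data. GENCODE 44 on GRCh38, the same assembly as hg38, gave positions and lengths for 19041 tested genes. One list symbol was matched through an older name. Counting intervals and floors cover counting error only.

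Members and lists were chosen with earlier results of these data known. Named genes were the members, called genes and the 4 most abundant of each list, the 5 nearest profiles, and tested genes within 1 Mb of GJA1. Alternatives were DESeq2 1.42.0, limma-voom (limma 3.58.1), RLE, upper quartile and library size scaling, no filter or a minimum of 50, a fold change of 1.5, the replicate block and leaving out each library. Some genes of the lists are counted but not reported here by name.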

Additional observations from a re-analysis of the deposited data

How the results depend on the processing

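At a fold change of 1.5, 6802 genes, 4 members (GJA1 included, as in the counts below) and 32 genes of the related lists were called, the last against 21, since the rule is looser. With a minimum mean of 50 they were 1969, 1 and 12, since fewer genes were tested. Leaving out 1 library called 1 to 2 members, and 1 without Delta-TRRAP replicate 1. GJA1 was the 1 member called there and with a minimum mean of 50, and its call follows from how it was picked. No member was called lower under any alternative. The GJA1 level in Delta-TRRAP was 521 to 573 normalized counts without 1 library and 577 with library size scaling. The sign of small fold changes turned for PANX1 (0.13 with library size scaling, 0.024 without Delta-TRRAP replicate 3) and for TJP1 (0.14 with library size scaling, 0.0010 with DESeq2, 0.021 without WT replicate 3 and 0.18 without Delta-TRRAP replicate 3), with ranges over the fits without 1 library of -0.065 to 0.024 and -0.21 to 0.18, none past an adjusted p of 0.01, and the causes were not tested. PANX2 passed the adjusted p under all 14 alternatives run for it.

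Deviations of same-numbered libraries were uncorrelated (r of -0.036 to -0.011 over genes), which gives no pairing by number. With the replicate block, 4218 genes, 2 members and 21 list genes were called.

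GJA4, GJB2 and GJD3 stayed under the filter on low counts, and their low counts limit precision. With no filter, CALHM5 and PATJ of the related lists were also called.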
